A study of Mus musculus with 2 samples.

Results

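The 10 genes described here are effectors of the interferon gamma (IFNγ) response. They comprise 5 guanylate-binding proteins (GBPs; *Gbp2*, *Gbp3*, *Gbp4*, *Gbp5* and *Gbp7*), 3 immunity-related GTPases (IRGs; *Igtp*, *Irgm1* and *Iigp1*), *Ido1* and *Ubd*. They were picked from the 32285 genes of the expression matrices with their levels in these libraries already known, so the levels and differences below are descriptions. The study asked how loss of the DNA methyltransferase gene *Dnmt1* in endothelial cells (ECs) alters the tumor vasculature, and single-cell RNA-seq (10x Genomics, 3′ ends) was done on sorted CD31+CD45- tumor endothelial cells (TECs). There was 1 control and 1 Dnmt1iECKO library, each from the pooled tumors of 3 female mice aged 8 to 10 weeks that bore YUMMER1.7, a mouse melanoma line. The Dnmt1iECKO mice were Cdh5CreERT2;Dnmt1fl/fl;ZsGreenlsl/lsl, in which tamoxifen deletes *Dnmt1* in every EC that uses the *Cdh5* driver, in tumors and elsewhere. The control is labelled C57BL/6, whereas the methods give control mice that also carried the inducible Cre and the ZsGreen reporter. The labels place the tumors under the skin of the shoulder, and the methods place them in the lung after injection into the tail vein. The sorted cells included ECs of a lung type, described below.

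IFNγ, made mainly by T and NK cells, signals through a receptor with JAK kinases, and its target promoters often hold gamma-activated sites (GAS) or interferon-stimulated response elements (ISRE), the latter bound by IRF factors. GBPs and IRGs are GTPases that collect on the membranes around intracellular pathogens. IDO1 begins the breakdown of tryptophan, which restrains nearby T cells, and *Ubd* encodes FAT10, a ubiquitin-like protein that marks proteins for the proteasome and is strongly induced by IFNγ together with TNF. In ECs these genes are used as readouts of exposure to IFNγ.

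In GRCm38, the mm10 build of the files, 4 of the 5 GBP genes lay on the forward strand of chromosome 3 within 144 kb, in the order *Gbp5* (chr3:142493978-142522344), *Gbp7* (chr3:142530342-142550149), *Gbp3* (chr3:142560026-142573209) and *Gbp2* (chr3:142620602-142638008). *Gbp4* lay apart from them on the reverse strand at chr5:105115767-105139586. *Igtp* (chr11:58199556-58207591, forward) and *Irgm1* (chr11:48861968-48871683, reverse) shared chromosome 11. *Ubd* was at chr17:37193892-37196095. In the annotation, *Gbp4* overlaps *Gbp8* and *Gbp9*, *Igtp* overlaps *Irgm2* and *Gbp7* overlaps a predicted gene, Gm43802, each on the same strand. Counts of these genes are uncertain where reads of overlapping or closely similar genes could have been shared or discarded.

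Promoters were read from RefSeq (GRCm38.p6) for 7 of the 10 genes, and *Gbp4*, *Iigp1* and *Ido1* are named only. The 250 bases before each start were searched on both strands for the ISRE core GAAANNGAAA and the GAS core TTCNNNGAA. An ISRE match was present in 6 of the 7 genes, against 2.98% of all 32851 mouse promoters of that length, and a GAS match in 3 (*Gbp5*, *Gbp7* and *Igtp*), against 7.02%. Both were present in 0.332% of all promoters. *Ubd*, the gene with the largest difference between the libraries, held neither in this window, which says nothing of sites elsewhere. Windows of 100 bases are shown 5′ to 3′ on the strand of each gene, with matches in capitals, for 4 promoters that hold a match within 110 bases of the start and for *Ubd*.
Gbp2 (chr3:142620563-142620662, forward): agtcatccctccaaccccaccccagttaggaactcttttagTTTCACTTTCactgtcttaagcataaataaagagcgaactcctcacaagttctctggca
Gbp7 (chr3:142530210-142530309, forward): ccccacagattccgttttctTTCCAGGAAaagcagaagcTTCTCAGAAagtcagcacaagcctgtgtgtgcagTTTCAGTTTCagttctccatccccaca
Igtp (chr11:58199456-58199555, forward): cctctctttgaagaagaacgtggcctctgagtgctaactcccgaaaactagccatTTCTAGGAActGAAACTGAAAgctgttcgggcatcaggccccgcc
Irgm1 (chr11:48871421-48871520, reverse): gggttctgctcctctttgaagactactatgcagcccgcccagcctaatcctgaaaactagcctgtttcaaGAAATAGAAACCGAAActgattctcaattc
Ubd (chr17:37193792-37193891, forward): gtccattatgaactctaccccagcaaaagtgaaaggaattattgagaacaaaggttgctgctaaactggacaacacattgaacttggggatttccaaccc
The ISRE match of *Gbp2* spans bases 59 to 50 before the start and that of *Gbp7* bases 53 to 44, both on the opposite strand. *Igtp* has its ISRE at bases 34 to 25 and a GAS at bases 45 to 37. In *Irgm1* a pair of ISRE matches overlap, at bases 30 to 21 and 24 to 15. The RefSeq starts of *Gbp2* and *Irgm1* lie inside the gene spans given above, which come from another annotation.

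The control library held 9301 cells and 123830489 unique molecular identifiers (UMIs, each standing for 1 captured mRNA molecule), and the Dnmt1iECKO library 9522 cells and 141433493 UMIs. After filtering, 4848 control and 2064 Dnmt1iECKO TECs remained, at medians of 9600 and 9755 UMIs per cell. A level is the UMIs of a gene summed over the cells of a class scaled to counts per 1000000 UMIs there (CPM), compared within a gene and not between genes, with an exact Poisson 95% interval. A difference is the log2 ratio of Dnmt1iECKO over control with its exact interval. With 1 library per group there were no replicates and no test, and all intervals cover counting error only. *Dnmt1* was at 48.9 CPM in control and 26.7 in Dnmt1iECKO TECs, a log2 ratio of −0.87 (−1.0 to −0.75). Within vein-like TECs it was at 36.5 and 30.0 CPM, from 91 and 89 UMIs, and the interval of that ratio included 0. In artery-like TECs *Dnmt1* was at 20.9 and 19.6 CPM, from only 16 and 13 UMIs, a ratio of −0.09 (−1.27 to 1.05). TECs were classed by UMIs of *Ednrb* and *Car4* (aerocyte-like, 1525 control and 508 Dnmt1iECKO cells), *Kit* and *Bmp6* (general capillary-like, 2531 and 1027), *Slc6a2* and *Selp* (vein-like, 147 and 171) or *Gja5* and *Bmx* (artery-like, 46 and 50), and 599 and 308 stayed unclassed, at medians of 2870 and 3062.5 UMIs. Of 6 further markers of each class, all 6 were highest in their own class in both libraries for aerocyte-like and vein-like cells, 5 and 4 for general capillary-like cells and 5 and 5 for artery-like cells. Of the cell barcodes, 29 occurred in both libraries. Summed levels of 8 fibroblast markers in TECs were 781 CPM in control and 1455 in Dnmt1iECKO, all 8 detected in both, those of 8 epithelial markers 200.5 and 78.0, of 8 macrophage markers 41.6 and 48.5, and of 8 T and NK cell markers 3.2 and 8.35.

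The levels of the GBPs, *Iigp1* and *Ubd* varied among the vessel classes (the plot of levels by class). In the control library, 8 of the 10 genes had their highest level in vein-like TECs and the other 2, *Gbp7* and *Ido1*, in general capillary-like TECs. For *Gbp3*, *Igtp* and *Irgm1* the control intervals of vein-like and general capillary-like TECs overlapped. The lowest level was in aerocyte-like TECs for 5 genes, in artery-like TECs for 4 and in vein-like TECs for *Ido1*. In the Dnmt1iECKO library, vein-like TECs were highest for 4 genes and general capillary-like TECs for 6. The shares of all genes with their highest level in each class were not computed, so these counts cannot be read as particular to the 10 genes. Aerocytes are the thin, gas-exchanging capillary ECs of the lung, and general capillary ECs are the progenitor-like cells beside them. Aerocyte-like cells were found in both libraries, so the sorted tissue held lung, the site that the methods give.

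**Figure D1:**
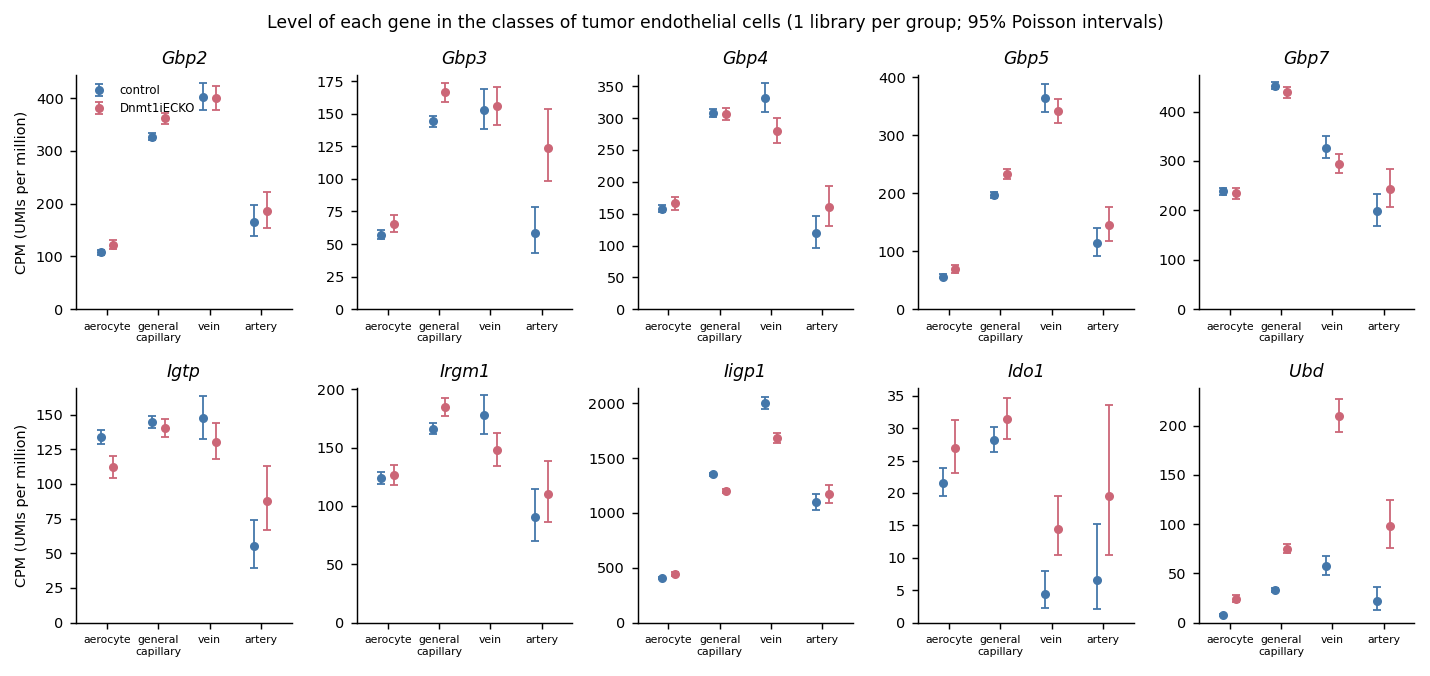
Levels of the 10 genes (CPM, linear axes from 0) in 4 classes of tumor endothelial cells, with blue points for the control and red points for the Dnmt1iECKO library and bars for exact Poisson 95% intervals. *Ubd* is higher in the Dnmt1iECKO library in each of the 4 classes, whereas the GBP and IRG points of the libraries lie close together in the aerocyte-like and general capillary-like classes.

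Among the GBPs, *Gbp5*, which takes part in inflammasome activation, was at 56.4 CPM (53.0 to 59.9) in aerocyte-like, 113.8 (91.2 to 140.4) in artery-like, 197.4 (192.4 to 202.5) in general capillary-like and 363.2 (339.9 to 387.6) in vein-like control TECs. The intervals did not overlap between any of these neighbours, and the highest level was 6.44-fold (5.88 to 7.05) the lowest. In Dnmt1iECKO TECs *Gbp5* kept this order, at 69.3, 144.7, 232.8 and 341.2 CPM, and the same ratio was 4.92 (4.40 to 5.51). *Gbp2*, a GBP that is recruited to pathogen vacuoles, was at 107.6 CPM in aerocyte-like, 166.1 in artery-like, 326.5 in general capillary-like and 402.5 in vein-like control TECs, against 121.8, 185.4, 361.9 and 399.1 in Dnmt1iECKO TECs. The ratio of highest to lowest was smaller for *Gbp4*, at 2.79 in control and 1.92 in Dnmt1iECKO TECs, and for *Gbp7*, at 2.28 and 1.87. *Gbp3* was at 152.9 CPM in vein-like and 144.1 in general capillary-like control TECs, and these intervals overlapped.

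Of the IRGs, *Iigp1* (chr18:60376027-60392634, forward) is an effector that coats vacuole membranes. It was at 405.4 CPM (396.2 to 414.8) in aerocyte-like, 1097.6 (1024.5 to 1174.4) in artery-like, 1351.9 (1338.7 to 1365.2) in general capillary-like and 2000.4 (1945.2 to 2056.7) in vein-like control TECs. In Dnmt1iECKO TECs the levels were 443.5, 1173.0, 1197.4 and 1679.8 CPM, with overlapping intervals in artery-like and general capillary-like cells. The highest level was 4.93-fold (4.76 to 5.12) the lowest in control and 3.79-fold (3.62 to 3.97) in Dnmt1iECKO TECs. *Igtp* and *Irgm1*, regulatory IRGs that sit on the cell's own membranes, varied less across the capillary and vein classes. In control TECs *Igtp* was at 147.3 CPM in vein-like and 144.8 in general capillary-like cells, with overlapping intervals, at 133.8 in aerocyte-like cells and at 54.9 CPM, from 42 UMIs, in artery-like cells. *Irgm1* was at 177.8, 166.2 and 123.9 CPM in the same 3 classes and at 90.3 in artery-like cells.

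*Ido1* (chr8:24584136-24597009, reverse) had another order of classes. In control TECs it was at 28.2 CPM (26.4 to 30.2) in general capillary-like, 21.6 (19.5 to 23.9) in aerocyte-like, 6.54 (2.12 to 15.3) in artery-like and 4.41 (2.20 to 7.90) in vein-like cells, the last 2 from 5 and 11 UMIs. In Dnmt1iECKO TECs it was at 31.4, 26.9, 19.6 and 14.5 CPM, and the intervals of all neighbours in this order overlapped. *Ubd* was at 57.8 CPM in vein-like, 33.0 in general capillary-like, 22.2 in artery-like and 7.48 in aerocyte-like control TECs. In Dnmt1iECKO TECs it was at 210.2, 75.1, 98.0 and 24.1 CPM in these classes, so vein-like cells were again highest and aerocyte-like cells lowest, while the intervals of general capillary-like and artery-like cells overlapped in both libraries. Vein-like cells had 7.73-fold (6.07 to 9.84) the *Ubd* level of aerocyte-like cells in control and 8.74-fold (7.33 to 10.5) in Dnmt1iECKO.

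Over all TECs, *Ubd* was the one gene of the 10 that was at least 1.5-fold higher in the Dnmt1iECKO library. It was at 24.5 CPM (23.2 to 25.9) from 1365 UMIs in control and 72.6 CPM (69.3 to 76.0) from 1868 UMIs in Dnmt1iECKO TECs, 2.96-fold (2.76 to 3.17) higher, or a log2 ratio of 1.56 (1.46 to 1.67). None of the 10 was at least 1.5-fold lower. Of the 13004 genes that reached 100 UMIs over both libraries, 7.51% were at least 1.5-fold higher and 2.15% at least 1.5-fold lower. The median log2 ratio of the 10 genes was 0.11, against −0.01 over all these genes. Given the class composition of the control library, the Dnmt1iECKO level of *Ubd* had a log2 ratio of 1.30, and without the 205 control and 130 Dnmt1iECKO TECs that carried at least 3 markers of another cell type the ratio was 1.64.

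The GBPs differed by less. *Gbp5* was at 149.2 CPM in control and 188.6 in Dnmt1iECKO TECs, a log2 ratio of 0.34 (0.29 to 0.39). *Gbp2* was at 250.6 and 296.0 CPM, a ratio of 0.24 (0.20 to 0.28), and *Gbp3* at 110.9 and 130.6, with the same ratio to 2 decimals (0.17 to 0.30). All 3 intervals were above 0. With other choices of cells or scaling the ratios ran from 0.17 to 0.40 for *Gbp5*, 0.16 to 0.24 for *Gbp2* and 0.16 to 0.28 for *Gbp3*. By class the *Gbp5* ratio was −0.09 in vein-like, 0.24 in general capillary-like, 0.30 in aerocyte-like and 0.35 in artery-like TECs. Its intervals in vein-like and artery-like TECs included 0. *Gbp4* was at 240.6 and 244.5 CPM, a ratio of 0.02 with an interval that included 0 (−0.02 to 0.07), and *Gbp7* was at 355.0 and 338.9, a ratio of −0.07 (−0.10 to −0.03).

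The IRGs and *Ido1* were close in level between the libraries. *Iigp1* was at 1029.9 CPM in control and 1034.0 in Dnmt1iECKO TECs, a log2 ratio of 0.01 (−0.02 to 0.03). *Irgm1* was at 146.4 and 154.6 CPM, a ratio of 0.08 (0.02 to 0.13), and *Igtp* at 137.5 and 126.6, a ratio of −0.12 (−0.18 to −0.06). *Ido1* was at 22.7 CPM from 1265 UMIs in control and 25.1 from 646 UMIs in Dnmt1iECKO TECs, a ratio of 0.14 (0.00 to 0.28). The signs of the *Gbp4*, *Irgm1* and *Iigp1* ratios changed with the choice of cells or scaling, where *Irgm1* ran from −0.03 to 0.10 and *Iigp1* from −0.12 to 0.03.

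**Figure D2:**
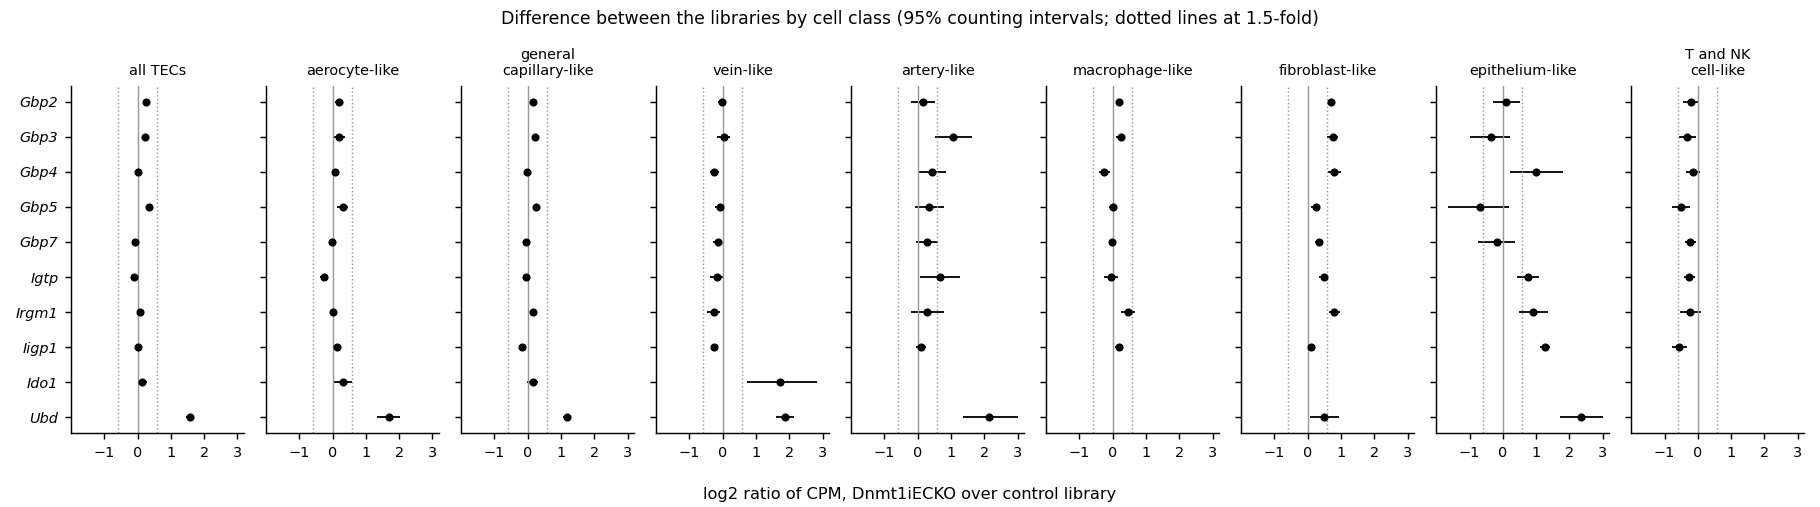
Log2 ratio of CPM, Dnmt1iECKO over control library, for each gene that reached 100 UMIs (all TECs) or 50 UMIs (each class) over both libraries. Bars are exact 95% counting intervals and dotted lines mark 1.5-fold. *Ubd* lies right of the upper line in all TECs, in the 4 TEC classes and in epithelium-like cells, and 4 genes lie beyond it in fibroblast-like cells.

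Within classes *Ubd* was higher in each kind of vessel that was named, although from few cells. The log2 ratio was 2.14 (1.35 to 3.0) in artery-like TECs, from 17 and 65 UMIs, 1.86 (1.60 to 2.13) in vein-like, 1.69 (1.35 to 2.03) in aerocyte-like and 1.19 (1.06 to 1.32) in general capillary-like TECs. Cells with a *Ubd* UMI numbered 109 and 93 in general capillary-like, 31 and 19 in aerocyte-like, 11 and 21 in vein-like and 3 and 5 in artery-like TECs, and 1 vein-like control cell held 40.3% of the UMIs of its class. In thinned cells, the share with *Ubd* was 1.5% (1.06 to 2.06) and 4.52% (3.31 to 6.00) in general capillary-like TECs, whereas the intervals of the libraries overlapped in the other 3 classes. In vein-like TECs that share was 2.76% (0.757 to 6.91) and 5.33% (2.46 to 9.87). Without the richest cell of each library, the ratio was 2.20 (1.86 to 2.55) in vein-like TECs, and 5 and 41 *Ubd* UMIs were left in artery-like TECs, below the minimum of 50. In the shallow unclassed TECs it was at 19.7 and 21.6 CPM, a ratio of 0.14 with an interval that included 0 (−0.37 to 0.63). There 0 of the 9 genes with the minimum count passed 1.5-fold (8.58% of all genes were higher and 9.35% lower). When a class was taken as cells with UMIs of both genes of its pair, the ratio in aerocyte-like TECs was 0.22, from 104 and 43 UMIs, and its interval included 0 (−0.33 to 0.75). Differences between the classes were not tested.

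In aerocyte-like TECs, *Ubd* was 1 of 10 genes at least 1.5-fold higher (4.81% of all genes there) and 0 were lower (3.72%), and in general capillary-like TECs likewise 1 of 10 was higher (6.15%) and 0 lower (2.82%). In general capillary-like TECs *Gbp5* was at 197.4 and 232.8 CPM, a log2 ratio of 0.24 (0.17 to 0.30), while *Iigp1* was at 1351.9 and 1197.4, a ratio of −0.18 (−0.20 to −0.15). In aerocyte-like TECs *Igtp* was at 133.8 and 112.1 CPM, a ratio of −0.25 (−0.38 to −0.14).

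In vein-like TECs *Ubd* and *Ido1* were 2 of 10 genes at least 1.5-fold higher (4.92% of all genes) and 0 were lower (4.5%). *Ido1* was at 4.41 and 14.5 CPM, a log2 ratio of 1.71 (0.73 to 2.82), but from 11 and 43 UMIs in 4 and 17 cells. Its richest cell held 8 of the control and 17 of the Dnmt1iECKO UMIs, and without those cells 3 and 26 UMIs were left, below the minimum. With UMIs of both genes of the pair required, *Ido1* had 9 and 9 UMIs, a ratio of −0.18 (−1.69 to 1.33). With the pair counted after thinning it had 4 and 32 UMIs, a ratio of 2.85 (1.36 to 4.81). Both of these counts were also below the minimum. Of the 8 GBPs and IRGs in vein-like TECs, 7 had ratios below 0 and *Gbp3* was at 152.9 and 155.6 CPM. The median log2 ratio of all genes in these cells was −0.01. *Iigp1* was at 2000.4 and 1679.8 CPM, a ratio of −0.25 (−0.31 to −0.20), *Gbp4* at 331.9 and 279.9, a ratio of −0.25 (−0.39 to −0.10), and *Irgm1* at 177.8 and 147.9, a ratio of −0.27 (−0.46 to −0.07). *Gbp2* was at 402.5 and 399.1 CPM, a ratio of −0.01. Summed fibroblast markers in these cells were 226 and 41.4 CPM. Of 10 genes that tissue dissociation induces, 9 had ratios below 0 and 2 were at least 1.5-fold lower, at a median of −0.15 beside −0.12 for the 10 genes described here. Of 13 type I interferon genes, 10 had ratios below 0, with 2 at least 1.5-fold higher and 4 lower. The part of these in the values was not tested.

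Of 9 genes with the minimum count in artery-like TECs, 3 were at least 1.5-fold higher (8.44% of all genes) and 0 lower (11.5%), and all 9 ratios were above 0. The median log2 ratio of all genes in these cells was −0.01. *Gbp3* was at 58.9 CPM from 45 UMIs and 123.6 CPM from 82 UMIs, a log2 ratio of 1.07 (0.53 to 1.63), and *Igtp* was at 54.9 and 87.4 CPM, a ratio of 0.67 (0.07 to 1.28). *Iigp1* was at 1097.6 and 1173.0 CPM, a ratio of 0.10 with an interval that included 0 (−0.05 to 0.24). These classes held 46 and 50 cells, and the count of genes at least 1.5-fold higher ran from 1 to 7 over the ways of choosing the cells. Summed fibroblast markers there were 3147 and 2347 CPM. Of 10 genes that tissue dissociation induces, 9 had ratios above 0, at a median of 0.38 beside 0.35 for the 9 genes, and of 8 type I interferon genes 7 did, at a median of 0.50. The part of these in the values was not tested.

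*Ubd* was concentrated in few cells. At full depth 172 of 4848 control TECs (3.55%) and 152 of 2064 Dnmt1iECKO TECs (7.36%) had a *Ubd* UMI, and these cells held 7.94 and 12.3 UMIs each on average. At least 5 *Ubd* UMIs were found in 1.32% of control and 3.10% of Dnmt1iECKO TECs, and at least 20 in 0.351% and 1.26%. The 5% of TECs richest in *Ubd* held 100% of its UMIs in control and 97.4% in Dnmt1iECKO, and a single control cell held 215 UMIs, 15.8% of the total. Without the richest cell of each library the log2 ratio was 1.67 (1.56 to 1.78).

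With each cell thinned to 2000 UMIs, which left 4492 control and 1892 Dnmt1iECKO TECs, *Ubd* was detected in 1.34% (exact binomial interval 1.02 to 1.72) of control and 3.86% (3.04 to 4.83) of Dnmt1iECKO TECs. In thinned T and NK cell-like cells, read for comparison, *Ubd* was found in 0 of 301 control cells, which allows a share of up to 0.997% by the limit of 3 counts and 1.22% by the exact binomial interval, and in 2 of 1333 Dnmt1iECKO cells (0.15%), at median depths of 8585 and 8660 UMIs before thinning. At full depth 2 control and 8 Dnmt1iECKO cells of this type had a *Ubd* UMI. *Ido1* was detected in 2.87% (2.40 to 3.4) and 3.28% (2.52 to 4.18) of thinned TECs, against 9.67% and 10.1% at full depth, and in none of the thinned T and NK cell-like cells. The 5% of TECs richest in *Ido1* held 82.1% and 83.6% of its UMIs.

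The GBPs and IRGs were spread more widely. For these 8 genes the richest 5% of TECs held between 31.8% (*Gbp7*, control) and 59.4% (*Gbp5*, control) of the UMIs. *Iigp1* was detected in 44.1% (42.6 to 45.5) of thinned control and 46.8% (44.5 to 49.1) of thinned Dnmt1iECKO TECs, and in 7.64% and 7.50% of T and NK cell-like cells. *Gbp5* was detected in 14.5% (13.5 to 15.5) and 16.3% (14.6 to 18.0), and at full depth at least 20 of its UMIs were found in 1.71% of control and 3.0% of Dnmt1iECKO TECs. *Gbp3* was detected in 16.2% (15.2 to 17.3) and 19.4% (17.6 to 21.2), and *Igtp* in 19.1% (17.9 to 20.2) and 16.6% (14.9 to 18.4).

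**Figure D3:**
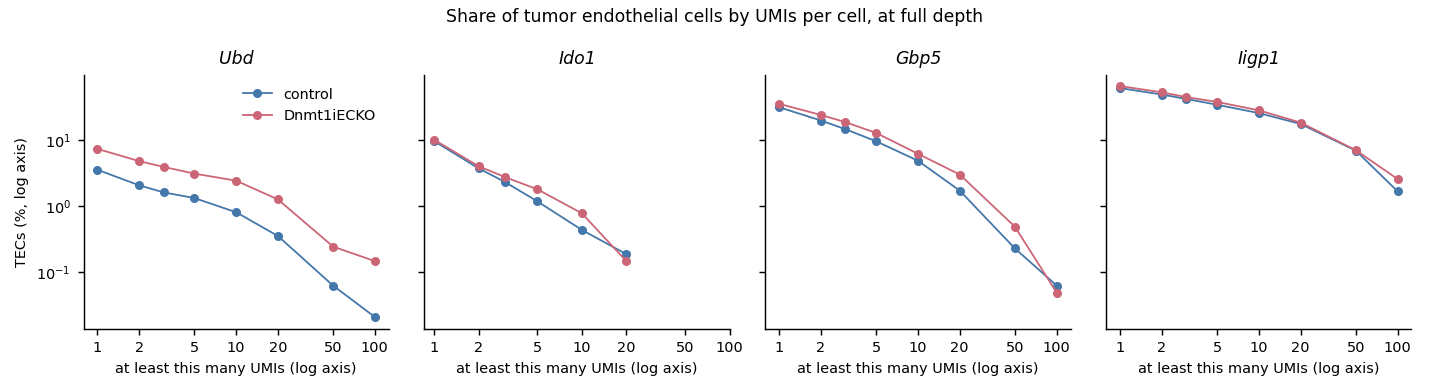
Percent of tumor endothelial cells (log axis) with at least the given number of UMIs (log axis) of *Ubd*, *Ido1*, *Gbp5* and *Iigp1* at full depth, blue for the control and red for the Dnmt1iECKO library. The *Ubd* curves stay apart along their length, from 3.55% and 7.36% at 1 UMI to 0.351% and 1.26% at 20 UMIs, whereas those of *Iigp1* run closer together up to 50 UMIs, at 6.93% and 7.03%, and part at 100 UMIs, at 1.67% and 2.57%.

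Cells with *Ubd* also carried the other genes more often than cells without it, in both libraries. Of thinned control TECs, 60 had a *Ubd* UMI, and *Gbp5* was detected in 45.0% (32.1 to 58.4) of them and in 14.1% (13.0 to 15.1) of the other 4432. In the Dnmt1iECKO library, with 73 and 1819 such cells, *Gbp5* was detected in 53.4% (41.4 to 65.2) and 14.8% (13.2 to 16.5). *Iigp1* was detected in 80.0% of control cells with *Ubd* and 43.6% of those without, and in 75.3% and 45.6% in the Dnmt1iECKO library. *Ido1* was detected in 16.7% and 2.69% in control and in 15.1% and 2.80% in Dnmt1iECKO. For all 9 other genes the interval for cells with *Ubd* lay above that for cells without it in each library. The share of all genes for which this holds was not computed, so the count cannot be read as particular to these genes. These shares are descriptions over cells of 1 library and are not independent of vessel class.

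Some genes outside the 10 were read in the same cells. *Cxcl9*, a chemokine that draws T cells and is induced by IFNγ, was detected in 43.3% of control TECs with *Ubd* and 2.01% of those without, and in 39.7% and 3.74% in the Dnmt1iECKO library. *Ifit1*, an antiviral gene that answers to type I interferon, was detected in 11.7% and 15.3% in control and in 16.4% and 11.2% in Dnmt1iECKO, with overlapping intervals. *Pecam1*, which encodes the CD31 used in the sort, was detected in 88.3% and 89.1% and in 76.7% and 84.8%, again with overlapping intervals. Cells with *Ido1* had *Ifit1* more often than cells without it, at 31.0% (23.2 to 39.8) of 129 cells and 14.7% (13.7 to 15.8) of 4363 in control, and at 22.6% (12.9 to 35.0) of 62 and 11% (9.59 to 12.5) of 1830 in Dnmt1iECKO.

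**Figure D4:**
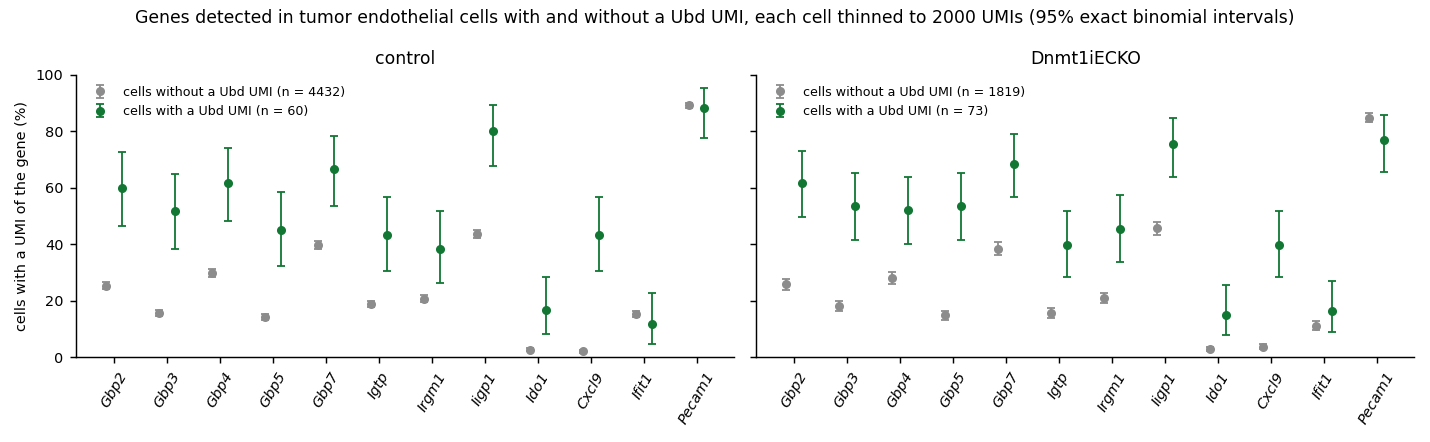
Percent of thinned tumor endothelial cells in which each gene was detected, for cells with (green) and without (grey) a *Ubd* UMI, in the control (left) and Dnmt1iECKO (right) library. Bars are exact binomial 95% intervals. The 9 GBP, IRG and *Ido1* points and *Cxcl9* are higher in cells with *Ubd*, and the intervals of *Ifit1* and *Pecam1* overlap.

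The genes were also read in the other cells that came through the sort. *Dnmt1* was at 36.7 CPM in control and 42.7 in Dnmt1iECKO macrophage-like cells, at 23.7 and 30.6 in fibroblast-like, 24.9 and 17.7 in epithelium-like and 91.8 and 98.8 in T and NK cell-like cells. In macrophage-like cells (186 control, 559 Dnmt1iECKO) 0 of 8 genes with the minimum count were at least 1.5-fold higher (6.75% of all genes) and 0 lower (4.43%). *Irgm1* was at 42.0 and 57.7 CPM, a log2 ratio of 0.46 (0.26 to 0.66) that was 0.17 with 4 instead of 3 macrophage markers required, and *Gbp4* at 74.9 and 63.0, a ratio of −0.25 (−0.41 to −0.09). *Ubd* had 15 and 13 UMIs and *Ido1* 6 and 4 in these cells.

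In fibroblast-like cells (279 and 459, of which 46 and 53 also met the definition of TECs) 4 of 9 genes were at least 1.5-fold higher (6.36% of all genes) and 0 lower (4.07%), and all 9 ratios were above 0. The median log2 ratio of all genes in these cells was 0.005. *Gbp2* was at 228.6 and 373.5 CPM, a log2 ratio of 0.71 (0.63 to 0.79). *Irgm1* was at 58.5 and 101.6 CPM, a ratio of 0.80 (0.64 to 0.96). *Gbp3* was at 55.7 and 93.4 CPM and *Gbp4* at 37.7 and 65.2. With 4 instead of 3 fibroblast markers required per cell, 0 of the 9 passed 1.5-fold, *Gbp2* had a ratio of 0.42, *Irgm1* of 0.57 and *Gbp4* of −0.05. *Iigp1* was at 971.5 and 1049.3 CPM, a ratio of 0.11. *Ubd* was at 8.35 and 11.8 CPM, from 63 and 153 UMIs, a ratio of 0.50 (0.07 to 0.94). The richest cells held 37 and 30 of these UMIs, and the ratio without them was 1.45 (0.83 to 2.12).

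In epithelium-like cells (157 and 76) 5 of 9 genes were at least 1.5-fold higher (4.97% of all genes) and *Gbp5*, from 41 and 15 UMIs, was at least 1.5-fold lower (5.42% of all genes), with an interval that included 0 (−1.66 to 0.19). *Iigp1* was at 157.7 and 379.2 CPM, a log2 ratio of 1.27 (1.11 to 1.42), and *Irgm1* was at 23.5 and 44.3, a ratio of 0.91 (0.48 to 1.35). *Ubd* was at 8.01 and 40.5 CPM, but 28 of its 29 control UMIs and 55 of its 87 Dnmt1iECKO UMIs came from 1 cell each, which left 1 and 32 UMIs. The richest cells of *Iigp1* held 111 and 317 UMIs, and the ratio without them was 0.85 (0.67 to 1.04).

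T and NK cell-like cells (301 and 1333) had all 8 genes with the minimum count at lower levels in the Dnmt1iECKO library, though 0 of 8 by 1.5-fold (6.05% of all genes) and 0 higher by it (7.42%), at log2 ratios between −0.56 and −0.15. The median log2 ratio of all genes in these cells was −0.0009. *Iigp1* was at 69.5 and 47.0 CPM, a ratio of −0.56 (−0.79 to −0.34). *Ifng*, which encodes the cytokine itself, was at 126.2 CPM from 396 UMIs in control and 67.7 CPM from 941 UMIs in Dnmt1iECKO T and NK cell-like cells, a ratio of −0.90 (−1.07 to −0.73), and had 1 and 2 UMIs in TECs. These cells had been selected against by the CD45 gate, so they do not stand for the T and NK cells of the tumors.

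The genes around the 10 in the same pathways were read over all TECs, where, as given above, 7.51% of all genes were at least 1.5-fold higher and 2.15% lower, so that lists of this size would hold few such genes at those shares. Of 4 other GBPs with the minimum count (5 of the 6 listed were in the matrices), 0 were past 1.5-fold, with a median log2 ratio of −0.07. Of 10 other IRGs (10 of 11 in the matrices), some of them near-identical copies between which reads cannot be told apart, 0 were past 1.5-fold, with a median of −0.12 and a range of −0.57 to 0.24. Of 15 genes of IFNγ signaling, 1 was at least 1.5-fold higher, *Irf8*, a transcription factor of the IRF family, at 26.1 and 39.6 CPM, and the median was −0.01. *Irf1*, another factor of that family, was at 1109.3 and 1032.7 CPM, a log2 ratio of −0.10. The receptor gene *Ifngr1* was at 148.8 and 149.3 CPM. *Irf1* and *Ifngr1* were picked after their values were seen.

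Among 15 other genes induced by IFNγ (15 of 16 in the matrices), 2 were at least 1.5-fold higher and 1 lower, with a median log2 ratio of 0.15. *Cxcl9* was at 53.7 and 168.0 CPM, a ratio of 1.65 (1.58 to 1.71). By class its ratio was 1.63 in vein-like, 1.51 in general capillary-like and 0.94 in aerocyte-like TECs, but in artery-like TECs it was at 247.2 and 54.3 CPM, a ratio of −2.19 (−2.74 to −1.67), opposite in sign to that of *Ubd*. The artery-like values came from 189 and 36 UMIs in 46 and 50 cells, and the spread of these UMIs over the cells was not examined. *Casp1*, an inflammatory protease gene, was at 5.27 and 11 CPM, a ratio of 1.06 (0.82 to 1.30), and *Serpina3f*, a protease inhibitor gene, at 30.8 and 13.8, a ratio of −1.15 (−1.32 to −0.99). Of 10 NF-kB target genes, which TNF induces, 2 were at least 1.5-fold higher and 1 lower, with a median of 0.31. *Sele*, the leukocyte adhesion molecule E-selectin, was at 32.0 and 78.0 CPM, *Vcam1* at 170.3 and 388.4, and the chemokine gene *Ccl2* at 50.6 and 33.0. The log2 ratios of *Sele* and *Vcam1* were 1.29 and 1.19 over all TECs but 0.25 and 0.40 in vein-like TECs, where both were highest. They were 0.97 and 0.58 in general capillary-like, 0.67 and 0.54 in aerocyte-like and 0.81 and 0.19 in artery-like TECs. Vein-like cells were 147 of 4848 control and 171 of 2064 Dnmt1iECKO TECs, and the part of this was not tested.

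Type I interferon genes gave 0 of 13 past 1.5-fold (13 of 15 in the matrices), 11 of 13 ratios below 0 and a median of −0.16. In some classes more of them were at least 1.5-fold higher. These were 4 of 13 in fibroblast-like cells (6.36% of all genes), 5 of 11 in epithelium-like cells (4.97%) and 4 of 8 in artery-like TECs (8.44%). The artery-like TECs numbered only 46 and 50. Of 6 genes of FAT10 conjugation, which attach or recognise the product of *Ubd*, 0 were past 1.5-fold, at a median of −0.07 and a range of −0.09 to 0.13. Of 10 genes of ATG8 conjugation, on which loading of IRGs and GBPs onto vacuoles depends, 0 were past 1.5-fold, at a median of −0.06. Of 5 genes of tryptophan catabolism with the minimum count (10 listed), 0 were past 1.5-fold, at a median of −0.02, and *Kynu* and *Kmo*, which act further along the pathway from *Ido1*, had 11 and 4 and 7 and 7 UMIs in TECs. Of the 10 dissociation genes, 0 were past 1.5-fold over all TECs, at a median of 0.10.

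**Figure D5:**
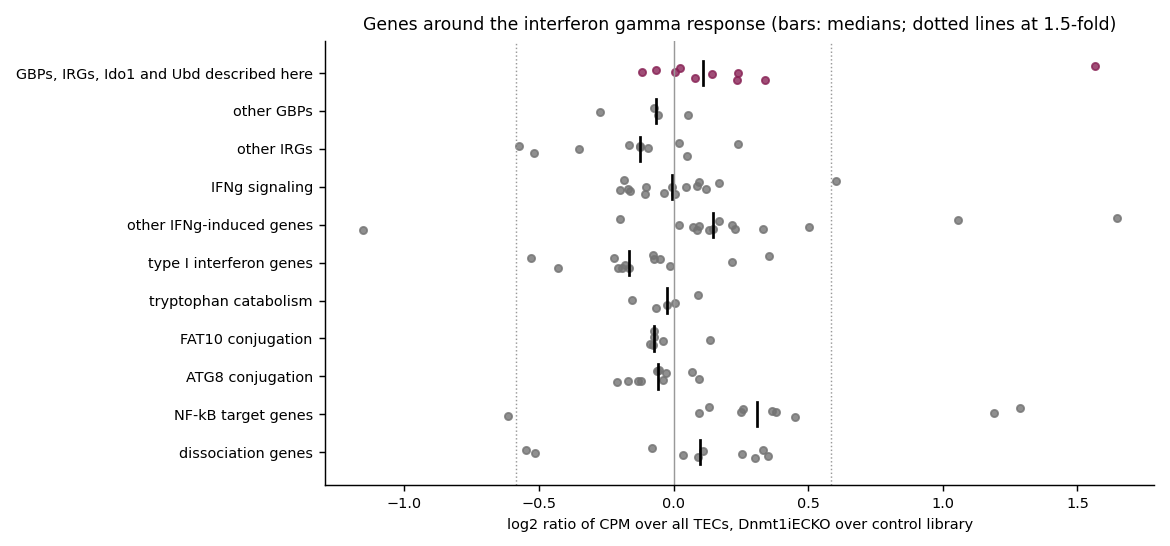
Log2 ratio of CPM over all TECs, Dnmt1iECKO over control library, for each gene with at least 100 UMIs, by list, with the 10 genes described here in purple at the top. Black bars are medians and dotted lines mark 1.5-fold. *Ubd* at 1.56 and *Cxcl9* at 1.65 lie far to the right of the medians of their lists, 0.11 and 0.15.

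Across the 5 groups of TECs (4 classes and the unclassed) in both libraries, log2(CPM + 1) of each gene was set against the mean of the other 9. Pearson's r over these 10 points was highest for *Gbp3*, at 0.92, followed by *Gbp4* at 0.88 and *Gbp5* at 0.87, and it was 0.73 for *Ubd*, 0.49 for *Igtp* and 0.12 for *Ido1*. Of 10050 other genes with at least 500 UMIs, those most like the mean of the 10 were *Piezo1* (0.97), which encodes a mechanosensitive channel, *Arid5a* (0.97), *Fndc3a* (0.96), *Rbm18* (0.96) and *Entpd1* (0.96), which encodes the ectonucleotidase CD39. Their log2 ratios between the libraries over all TECs were between −0.02 and 0.18. The points share libraries and depth, so these values are descriptions.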

How the data were processed

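Live CD31+CD45- cells of pooled tumors were measured in 1 control and 1 Dnmt1iECKO library. The authors deposited UMI counts per gene and cell, made with Cell Ranger 9.0.1 on mm10, with cells called and no normalization. Cells with over 10% mitochondrial UMIs or fewer than 500 detected genes were removed, in place of the 9000 genes given in the methods, which 28 control and 52 Dnmt1iECKO cells reached, and the top Scrublet scores (scanpy 1.11.5; 0.4% per 1000 cells) were removed as doublets, 257 control and 263 Dnmt1iECKO cells. TECs had no UMI of *Ptprc*, *Epcam*, *Cspg4* or *Myh11* and at least 1 of *Cdh5* or *Pecam1*. A TEC joined a class with at least 2 UMIs of its marker pair and more than of any other pair. Other cell types needed at least 3 of 8 markers after thinning to 2000 UMIs, more than of any other type, and no *Cdh5* UMI, and 356 control and 172 Dnmt1iECKO TECs were too shallow to thin.

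Summed counts were compared as CPM in Python 3.11.15 (numpy 2.4.6, scipy 1.17.1, pandas 2.3.3, matplotlib 3.10.9), with exact 95% Poisson, conditional ratio and Clopper-Pearson intervals. A gene counted as higher or lower past 1.5-fold if it reached 100 UMIs over both libraries (50 in a class). The 10 genes, the gene lists and the classes were chosen with earlier results of these data known. Named besides the 10 were *Dnmt1*, the genes of each list past 1.5-fold (at most 3) and the 5 most alike in pattern, and any others were chosen after their values were seen. Alternatives changed filters, doublets, gates, scaling, weights, folds and minima. On simulated counts of 14201 genes with 200 changed, 99.5% had the right sign and 96.0% of intervals held the true value. The counts were drawn from the Poisson model that the intervals assume, without spread between cells or mice. The simulation therefore checks the calculation and cannot show how well the intervals hold in these data. Of the gene identifiers, 32158 of 32285 were found in GENCODE vM21. One gene of the interferon gamma signaling list is not reported here.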

Additional observations from a re-analysis of the deposited data

Results flagged for a closer look

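For 5 of the 10 genes the libraries differed in opposite directions in 2 kinds of cell, with both counting intervals off 0 and at least 1 of the differences past 1.5-fold. The share of all genes that meet this rule is not given, so the count cannot be read as a trait of these genes. The highest and lowest such values are given. *Gbp3* had a log2 ratio of 1.07 in artery-like TECs, from 45 and 82 UMIs, and −0.32 in T and NK cell-like cells, and it was at 0.75 in fibroblast-like cells. The other 4 were highest in epithelium-like cells. *Gbp4* had 1.00 there, from 27 and 32 UMIs, and −0.25 in macrophage-like cells. *Igtp* had 0.75 in epithelium-like and −0.25 in aerocyte-like cells, *Irgm1* had 0.91 in epithelium-like and −0.27 in vein-like cells, and *Iigp1* had 1.27 in epithelium-like and −0.56 in T and NK cell-like cells. The differences between these cell types were not tested. The epithelium-like values rest on 157 control and 76 Dnmt1iECKO cells. Without the richest cell of each library they were 0.91 for *Gbp4*, whose interval then included 0 (−0.08 to 1.92), 0.88 for *Igtp*, 0.85 for *Irgm1* and 0.85 for *Iigp1*.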

How the results depend on the processing

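Over all TECs, 1 gene (*Ubd*) was at least 1.5-fold higher and 0 lower under all 15 alternatives, and its log2 ratio ran from 1.30 to 1.67. Of the counts by class and over all TECs, 101 were within 1.5 times the reported value and 11 were not. With UMIs of both genes of the pair, 0 genes were at least 1.5-fold higher in aerocyte-like, 1 (*Ubd*) in vein-like and 7 in artery-like TECs. With the pair counted after thinning, there were 2 (*Ido1* and *Ubd*) in general capillary-like, 1 (*Ubd*) in vein-like and 1 (*Ubd*) in artery-like TECs. In fibroblast-like cells there were 0 with 4 markers required and 0 past 2-fold, and in epithelium-like cells 2 past 2-fold (*Iigp1* and *Ubd*). Leaving out the richest cell of each library for each gene, an alternative chosen after seeing the data, gave 1 (*Ubd*) in vein-like and 3 in epithelium-like cells, where the loss of *Ubd* and *Gbp4* and, in vein-like TECs, of *Ido1* came from too few UMIs being left. Causes of the other changes were not tested. Of the 160 alternative values for single genes, 99 lay within the reported intervals and 61 did not. The size-factor scaling moved all ratios over TECs by −0.03. Leaving out a replicate was not possible with 1 library per group, and the few cells with a UMI limit *Ido1* and *Ubd* in vein-like, artery-like and epithelium-like cells. No paired analysis was possible because each group had 1 library and no test was made.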
